A study of Homo sapiens with 18 samples.

Results

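The D-type cyclins CCND1, CCND2 and CCND3 and their kinase partners CDK4 and CDK6 were followed by their mRNA in 2 human melanoma cell lines, CHL1 and A375, under an inhibitor of these kinases and under an inhibitor of PRMT5. The genes were chosen by name, and all 5 have a row among the 20705 gene symbols of the count table. Poly-A RNA was sequenced in 18 libraries, 2 in each of 9 groups. CHL1 cells received DMSO for 72 hours, 1 μM palbociclib (CDK4/6i) for 72 hours or for 6 days, or 500 nM GSK3326595 (PRMT5i) for 72 hours. The 72-hour DMSO control served for every CHL1 treatment, so drug and time cannot be told apart in the 6-day samples of this line. A375 cells had the same groups and a DMSO control of 6 days besides, with which the 6-day CDK4/6i samples were compared. The labels give the genotype of every sample as WT, while the study's methods describe CHL1 as wild type for BRAF and NRAS with mutant p53, and A375 as BRAF mutant with wild-type p53. CHL1 was grown in DMEM and A375 in RPMI-1640, and each is 1 established line. The methods speak of 2 replicates per culture condition and do not say whether these were independent experiments, so p-values measure only the spread between them, which may be technical.

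D cyclins are the unstable regulatory subunits that growth factor signalling, in large part through the RAS-MAPK cascade, induces in G1. They bind and activate CDK4 and CDK6, which phosphorylate the retinoblastoma protein RB and its relatives and so release E2F factors to switch on genes for DNA replication. This axis is recurrently altered in melanoma, and palbociclib binds the ATP site of both kinases. PRMT5 is an arginine methyltransferase that acts on histones and on splicing proteins.

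In the annotation lifted to GRCh37, CCND1 (ENSG00000110092) lies on the plus strand at chr11:69455924-69469242 and has 4761 bases of merged exons. CCND2 (ENSG00000118971) lies on the plus strand at chr12:4378937-4414519, with 7988 bases. CCND3 (ENSG00000112576) is on the minus strand at chr6:41902672-42018095 with 5761 bases, CDK4 (ENSG00000135446) on the minus strand at chr12:58141510-58149796 with 3094 bases, and CDK6 (ENSG00000105810) on the minus strand at chr7:92234235-92465887 with 12239 bases. The genes differ in base composition, which bears on several values given further on. The longest transcript of CDK6 has a GC content of 39.7%, against 46.7% for CCND2, 50.3% for CCND1, 52.0% for CDK4 and 56.2% for CCND3, with a median of 47.9% over the matched genes of the table.

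The 250 bases upstream of a RefSeq transcript start, located in GRCh37 and printed 5′ to 3′ on the gene's strand, are shown for CDK4, CCND3 and CDK6. CCND1 and CCND2 had no entry in the promoter table used. The printed members are also those whose uncorrected values passed the test under PRMT5i in CHL1. Capitals mark the E-box CACGTG, a palindrome bound by MYC and related factors. CCND3 has 3 and CDK6 has 2 starts in the RefSeq table, of which the outermost is printed.
CDK4, chr12:58146094-58146343, minus strand: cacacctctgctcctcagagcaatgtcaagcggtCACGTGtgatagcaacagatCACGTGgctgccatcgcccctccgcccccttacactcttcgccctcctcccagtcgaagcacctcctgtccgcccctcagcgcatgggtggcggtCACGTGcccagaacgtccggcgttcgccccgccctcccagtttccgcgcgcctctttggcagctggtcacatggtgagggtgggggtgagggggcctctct
CCND3, chr6:42016427-42016676, minus strand: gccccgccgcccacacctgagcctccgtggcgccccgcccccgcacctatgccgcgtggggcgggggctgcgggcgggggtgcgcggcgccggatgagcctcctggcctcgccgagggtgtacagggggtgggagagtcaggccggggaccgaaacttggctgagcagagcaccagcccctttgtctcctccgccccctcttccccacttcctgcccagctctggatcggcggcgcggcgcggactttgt
CDK6, chr7:92465888-92466137, minus strand: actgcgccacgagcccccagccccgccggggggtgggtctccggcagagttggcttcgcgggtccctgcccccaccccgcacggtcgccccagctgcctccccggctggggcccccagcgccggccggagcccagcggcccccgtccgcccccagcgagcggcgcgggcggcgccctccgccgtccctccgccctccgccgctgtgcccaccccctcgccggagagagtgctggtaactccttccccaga
The CDK4 window held 3 E-boxes, against 0 in the CCND3 and the CDK6 windows. Of 35116 promoter windows of this length in the table, 6.34% held at least 1 E-box and 0.0797% held 3 or more. The GC box GGGCGG, searched on both strands, had 3 matches for CDK4, 5 for CCND3 and 3 for CDK6, and was present in 42.6% of all windows. The CRE motif TGACGTCA (1.65% of all windows) and the E2F motifs TTTGGCGC and TTTCGCGC (0.968%) had 0 matches in them. The motifs were picked with the sequences in view, and a match is a description of letters, not a binding site.

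The libraries held between 16213475 and 37424081 counts on genes. Column names put the 12 libraries of CHL1 and of 6-day A375 in 1 library set and the 6 of 72-hour A375 in another, so that the A375 controls of 72 hours and 6 days differ in time and in set. The level of a gene depended most strongly on its GC content in 4 libraries. From the poorest to the richest 10% of genes the median deviation fell by 2.32 and 1.88 on the log2 scale in the CHL1 PRMT5i libraries and by 2.18 and 1.09 in the 6-day A375 controls, against a range of -0.33 to 0.56 in the other 14. Most tests of the 5 genes that rest on these 4 libraries are given as deposited and, except for CCND2, after a correction for GC content. For some differences between times or lines only the number of genes passing is given with the correction. CCND2 averaged under 1 CPM and was not among the corrected genes. Levels in CPM, pool shares and ratios are given as deposited only, and so are genes of the lists where no corrected value stands beside them. Of the melanocyte lineage markers, 6 of 8 had an entry, with summed levels of 155 to 285 CPM (counts scaled to TMM-adjusted library size) in CHL1 and 113 to 263 CPM in A375. MITF was at 63.8 to 211 CPM in every library, while DCT was at 36.3 to 142 CPM in CHL1 and at 0 counts in the 72-hour A375 controls, and TYR and PMEL were at or below 5.02 CPM in both lines. The leukocyte list (2 of 4 with an entry) summed to 7.59 to 8.12 CPM in the CHL1 control, 9.56 to 12.5 CPM at 72 hours and 17.2 CPM in both libraries at 6 days of CDK4/6i, 14.3 to 16.1 CPM under PRMT5i and 0.29 to 0.932 CPM in A375. The epithelial list (3 of 4) summed to 0.572 to 1.34 CPM in CHL1 and, in A375, to 3.76 to 4.15 CPM in the 72-hour control, 9.51 to 10.2 CPM under CDK4/6i, 4.77 to 5.16 CPM under PRMT5i, and at 6 days 2.46 to 12.0 CPM in the control and 8.58 to 12.1 CPM under CDK4/6i. VWF, the endothelial marker with an entry of 3 listed, was at or below 2.81 CPM. The part of other cells in the results was not tested, and in bulk RNA fewer cells of a type and less RNA per cell cannot be told apart.

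In untreated cells CCND1 was the most abundant D cyclin mRNA of both lines, and the lines differed most in CDK6. Per kb of merged exon, the CHL1 control had 67.1 ± 2.46 CPM of CCND1 (SD, n = 2), 23.5 ± 3.91 CPM of CDK4, 11.3 ± 0.358 CPM of CCND3 and 0.881 ± 0.115 CPM of CDK6. In the 72-hour A375 control the order was CCND1 at 79.9 ± 2.2, CDK6 at 47.7 ± 2.44, CDK4 at 38.2 ± 5.02 and CCND3 at 7.59 ± 1.13 CPM per kb. In both lines no neighbours in this order overlapped. With the longest transcript as the length, CDK4 (63.3 CPM per kb) came above CDK6 in A375, so the order of these kinases depends on the length used. CCND2 was near absence in both lines, with 0 counts in each CHL1 control and 1 and 3 counts in the A375 controls.

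**Figure D1:**
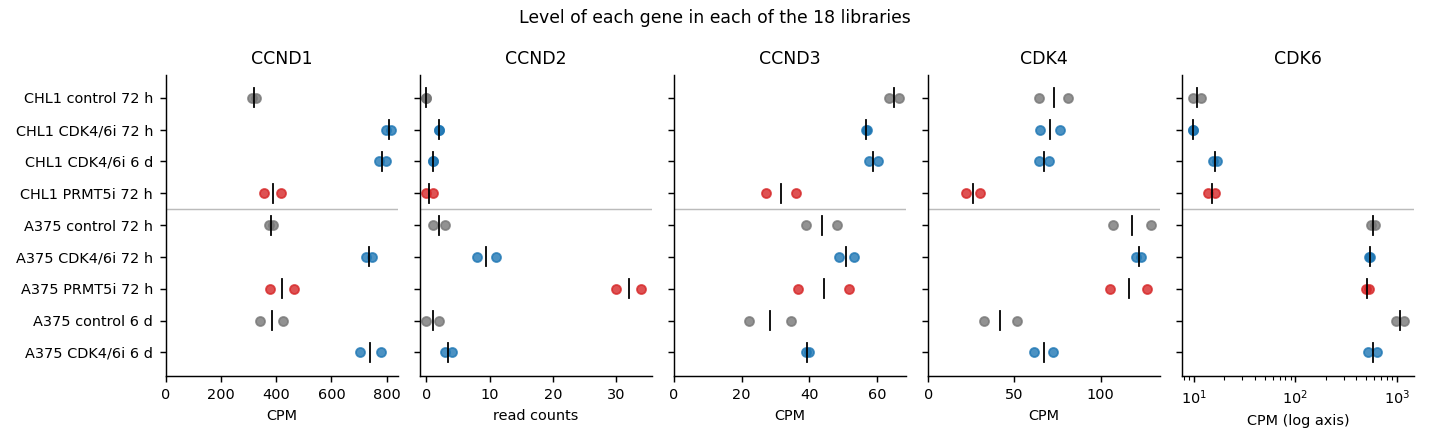
Level of the 5 genes in each of the 18 libraries (points, grey for control, blue for CDK4/6i, red for PRMT5i) with the mean of the 2 libraries of a group (line), in CPM, with a log axis for CDK6 and read counts for CCND2. CCND1 lies between 702 and 816 CPM in the 8 CDK4/6i libraries and between 311 and 464 CPM in the other 10, and CDK6 reaches at most 16.9 CPM in CHL1 and at least 495 CPM in A375.

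CDK6 mRNA stood at 11.8 and 9.79 CPM in the CHL1 controls and at 562 and 604 CPM in the 72-hour A375 controls. The groups lay far apart, and the level in CHL1 was 54.1-fold lower (log2 fold change -5.76 ± 0.21 (SE), adjusted p = 1.17e-13 by edgeR). CDK4 was lower in CHL1 as well, at 81.2 and 64.1 CPM against 107 and 129 CPM (log2 fold change -0.70 ± 0.22, adjusted p = 0.00919), and CCND3 was higher, at 66.5 and 63.5 CPM against 39.1 and 48.3 CPM (log2 fold change 0.57 ± 0.21, adjusted p = 0.0249). CCND1, at 311 and 328 CPM against 373 and 388 CPM, did not pass the test (log2 fold change -0.25 ± 0.17, adjusted p = 0.204). With CCND2, which the test called on counts of at most 3 and for which no fold is given, 4 of 5 genes were DEGs (adjusted p below 0.05), where 58.9% of all genes were. Line, medium and library set cannot be told apart in this comparison.

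Against the 6-day A375 control, of the same library set as CHL1, CDK6 was again lower in CHL1 (log2 fold change -6.64, and -6.24 with the GC correction) and CCND3 again higher (2.29-fold, and 0.91 on the log2 scale with the correction). CCND1 was at -0.26 (adjusted p = 0.181) and passed with the correction, lower in CHL1 (-0.43, adjusted p = 0.012). The sign of CDK4 turned, to 0.79 higher in CHL1, and 0.62 with the GC correction, both past the threshold. The A375 controls themselves differed. CDK4 stood at 107 and 129 CPM at 72 hours and at 32.5 and 51.3 CPM at 6 days (log2 difference -1.50 ± 0.22, adjusted p = 4.91e-05), CDK6 at 562 and 604 CPM and at 1173 and 984 CPM (0.89 ± 0.17, adjusted p = 0.000398), and CCND3 at 39.1 and 48.3 CPM and at 22.2 and 34.5 CPM (-0.63 ± 0.21, adjusted p = 0.0195). CCND1 differed by 0.01 ± 0.17, adjusted p = 0.966. GC-corrected, a fit added after seeing the data, these differences were -1.17 ± 0.18 (adjusted p = 0.000208) for CDK4, 0.25 ± 0.14 (adjusted p = 0.147) for CDK6, -0.08 ± 0.15 (adjusted p = 0.7) for CCND3 and 0.24 ± 0.14 (adjusted p = 0.181) for CCND1, and only that of CDK4 passed among these 4. The baseline call of CDK4 was lost without CHL1 control replicate 2 or A375 control replicate 2 (log2 fold changes of -0.86 to -0.52 over the libraries left out), and that of CCND3 without CHL1 control replicate 1 or 2 or A375 control replicate 1 (0.40 to 0.76).

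CCND1 encodes cyclin D1, a target of MAPK signalling. Its mRNA rose under CDK4/6i in both lines and at both times. In CHL1 it went from 311 and 328 CPM in the controls to 816 and 799 CPM at 72 hours and to 797 and 772 CPM at 6 days. All 4 treated libraries lay above both controls, with a 2.52-fold rise at 72 hours (log2 fold change 1.34 ± 0.15, adjusted p = 0.00141) and a 2.48-fold rise at 6 days (1.31 ± 0.15, adjusted p = 0.000533). In A375 it went from 373 and 388 CPM to 726 and 748 CPM at 72 hours, and from 342 and 425 CPM to 702 and 778 CPM at 6 days. Again the groups did not overlap, with a 1.86-fold rise at 72 hours (0.90 ± 0.19, adjusted p = 0.0063) and a 1.92-fold rise at 6 days (0.94 ± 0.19, adjusted p = 0.00134).

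In CHL1 at 72 hours CCND1 was the only one of the 5 genes to pass the test, against 4.98% of all genes, and the size of its change exceeded that of 96.9% of the genes averaging at least 1 CPM. In A375 at 72 hours it was again 1 of 5, against 13.3% of all genes. By the same measure the size of its change exceeded that of 93.8% of genes in CHL1 at 6 days. In A375 it exceeded that of 85.5% at 72 hours and 71.1% at 6 days. With the GC correction the log2 fold changes of CCND1 were 1.33 and 1.36 in CHL1 and 0.83 and 0.66 in A375 (72 hours and 6 days), and all 4 passed. In A375 at 72 hours the call was lost when any 1 of the 4 compared libraries was left out, at log2 fold changes of 0.87 to 0.94 and adjusted p of 0.0618 to 0.0777.

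Under PRMT5i CCND1 was at 356 and 419 CPM in CHL1 (log2 fold change 0.30 ± 0.15, adjusted p = 0.118) and at 376 and 464 CPM in A375 (0.13 ± 0.19, adjusted p = 0.807), and neither passed. The GC-corrected value in CHL1 was 0.55 ± 0.14, past the threshold (adjusted p = 0.0136, and 0.0136 to 0.176 over the 11 fits with every replicate). The uncorrected value also passed without CHL1 PRMT5i replicate 1 (0.41).

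**Figure D2:**
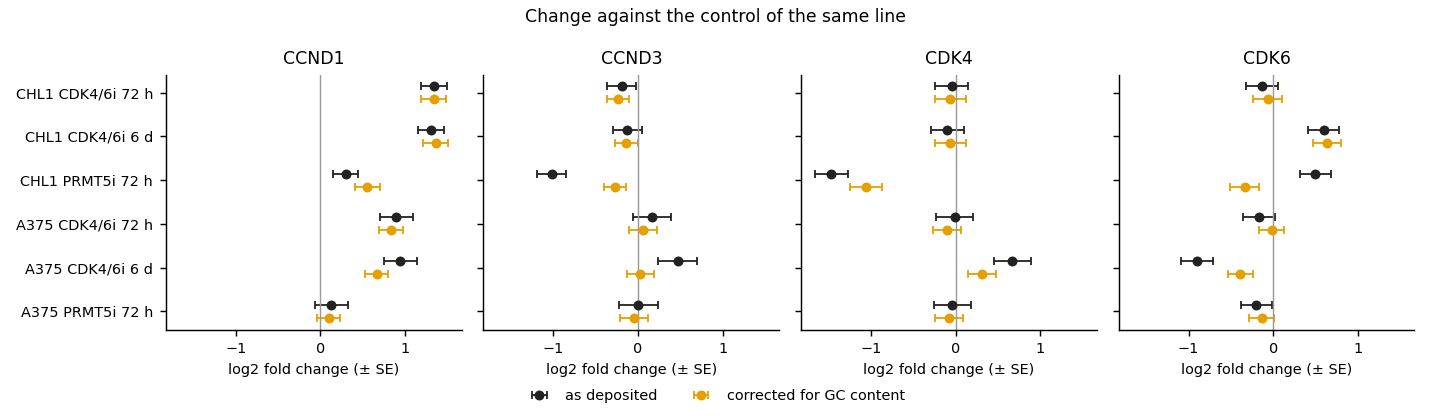
Log2 fold change of CCND1, CCND3, CDK4 and CDK6 against the control of the same line in 6 comparisons, with standard errors, from the counts as deposited (black) and with the correction for GC content (orange). CCND1 lies between 0.66 and 1.36 in all 4 CDK4/6i comparisons on both scales, while the CHL1 PRMT5i values of CCND3 and CDK6 move from -1.02 to -0.27 and from 0.50 to -0.34.

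CCND2 encodes cyclin D2, which is prominent in lymphoid and gonadal cells. It was all but silent here, and the A375 PRMT5i libraries held most of its reads. In CHL1 it had 0 to 2 counts in each of the 8 libraries, under the floor of 3 counts, so no fold is given. In A375 it had 1 and 3 counts in the 72-hour controls, 8 and 11 under CDK4/6i and 30 and 34 under PRMT5i, which is 1.65 and 2.06 CPM in the last group. These 3 groups did not overlap. Pooled over the 2 libraries and set against the controls, CCND2 was higher under PRMT5i (64 against 4 counts, ratio 19.0, 95% interval 7.06 to 71.8) and under CDK4/6i (19 against 4 counts, ratio 5.03, 95% interval 1.67 to 20.3), where the exact conditional intervals cover counting error only.

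By edgeR CCND2 passed the test under PRMT5i (log2 fold change 4.17 ± 0.68, adjusted p = 0.006) and was the only one of the 5 genes to do so, against 2.61% of all genes. Under CDK4/6i at 72 hours it did not (2.21 ± 0.79, adjusted p = 0.0751). With the replicate number as a block, in the 72-hour A375 libraries with numbered replicates, it passed there (adjusted p = 0.0107, and 0.0107 to 0.111 over the 9 fits with every replicate). CCND2 also passed in these libraries without the block. Block and restriction together moved the number of DEGs from 2761 to 8752 under CDK4/6i and from 541 to 6113 under PRMT5i. The restriction to these libraries alone gave 6424 and 3265. At 6 days CCND2 had 0 and 2 counts in the controls and 3 and 4 under CDK4/6i (7 against 2 counts, ratio 3.08, 95% interval 0.587 to 30.4). The PRMT5i call was lost without A375 control replicate 1 or without either PRMT5i replicate, with log2 fold changes of 3.61 to 5.11 over the libraries left out.

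CCND3 encodes cyclin D3, which is widely expressed. Under CDK4/6i it passed no test, and stood at 56.8 and 57.0 CPM at 72 hours and at 60.3 and 57.6 CPM at 6 days in CHL1, against 66.5 and 63.5 CPM in the controls. These log2 fold changes were -0.19 ± 0.17, adjusted p = 0.588 and -0.13 ± 0.17, adjusted p = 0.661. In A375 CCND3 was at 48.6 and 53.4 CPM at 72 hours (0.16 ± 0.23, adjusted p = 0.692) and at 39.9 and 39.0 CPM at 6 days against 22.2 and 34.5 CPM in the 6-day controls (0.47 ± 0.23, adjusted p = 0.11). The last value passed without A375 6-day control replicate 2 (0.86) and was 0.03 with the GC correction.

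Under PRMT5i CCND3 fell in CHL1, to 27.3 and 36.0 CPM, with both libraries under both controls (log2 fold change -1.02 ± 0.17, adjusted p = 0.000432). After GC correction the difference was -0.27 ± 0.13, no longer past the threshold (adjusted p = 0.137, and 1.26e-06 to 0.14 over the 11 fits with every replicate). In A375 it stood at 36.7 and 51.7 CPM under PRMT5i, on either side of its controls (0.00 ± 0.23, adjusted p = 1.0).

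CDK4 encodes the kinase that pairs with D cyclins in most tissues. At 72 hours of CDK4/6i it passed no test. In CHL1 it stood at 76.5 and 64.7 CPM at 72 hours and 69.8 and 64.5 CPM at 6 days, against 81.2 and 64.1 CPM (log2 fold changes -0.04 ± 0.19, adjusted p = 0.96, and -0.10 ± 0.19, adjusted p = 0.787). In A375 it stood at 124 and 120.5 CPM against 107 and 129 CPM at 72 hours (-0.01 ± 0.22, adjusted p = 1.0). At 6 days it rose in A375, with 72.5 and 61.4 CPM against 32.5 and 51.3 CPM in the controls (0.67 ± 0.22, adjusted p = 0.0223). That call was lost with the GC correction (0.31, adjusted p = 0.147, and 0.016 to 0.147 over the 9 fits with every replicate) and without A375 6-day control replicate 1 or 6-day CDK4/6i replicate 1 (0.35 to 1.07 over the libraries left out), and against the 72-hour control the sign turned (-0.86).

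Under PRMT5i CDK4 fell in CHL1, from 81.2 and 64.1 CPM to 21.7 and 30.2 CPM. The groups did not overlap, and the level was 2.76-fold lower (log2 fold change -1.47 ± 0.20, adjusted p = 0.000166), a larger change than that of 85.2% of genes averaging at least 1 CPM. GC-corrected, it was -1.06 ± 0.19 and passed (adjusted p = 0.00212, and 1.58e-09 to 0.00698 over the 11 fits with every replicate). The change also passed when each of the 4 libraries was left out in turn, at -1.73 to -1.24 on the uncorrected scale. In A375 CDK4 was at 105 and 127 CPM under PRMT5i (-0.04 ± 0.22, adjusted p = 0.975).

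CDK6 encodes the other D cyclin-dependent kinase, prominent in blood cells. In A375 it was high throughout, at 534 and 548 CPM under CDK4/6i at 72 hours and 495 and 529.6 CPM under PRMT5i against 562 and 604 CPM in the controls. All 4 treated libraries lay below both controls, but neither difference passed (log2 fold changes -0.17 ± 0.18, adjusted p = 0.605, and -0.20 ± 0.19, adjusted p = 0.656). At 6 days CDK6 fell under CDK4/6i, to 518 and 638 CPM against 1173 and 984 CPM in the controls (-0.90 ± 0.19, adjusted p = 0.00137). After GC correction the difference was -0.39 ± 0.15, just short of the threshold (adjusted p = 0.0517, and 1.52e-06 to 0.0517 over the 9 fits with every replicate), and against the 72-hour control it was -0.06. With CCND1 and CDK4 up and CDK6 down, 3 of 5 genes were DEGs in this comparison, against 43.1% of all genes. With the correction, which did not cover CCND2, 1 gene was, where 5882 of 13675 genes passed.

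In CHL1, where CDK6 was low, it stood at 9.82 and 9.89 CPM at 72 hours of CDK4/6i (-0.13 ± 0.19, adjusted p = 0.77). At 6 days it rose to 15.4 and 16.9 CPM against 11.8 and 9.79 CPM (0.59 ± 0.19, adjusted p = 0.0477), the other DEG there beside CCND1, so that 2 of 5 were called against 16.6% of all genes. This call sits at the threshold and was lost when any 1 of the 4 libraries was left out (adjusted p of 0.0868 to 0.333), while with the GC correction it passed (0.63). Under PRMT5i CDK6 rose to 16.1 and 13.9 CPM (0.50 ± 0.18, adjusted p = 0.0389). With the GC correction the sign turned (-0.34 ± 0.17, adjusted p = 0.139, and 0.022 to 0.145 over the 11 fits with every replicate), and the uncorrected call was lost without either CHL1 control or without CHL1 PRMT5i replicate 1 (0.37 to 0.63 over the libraries left out).

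In CHL1 under PRMT5i 3 of 5 genes were DEGs (1 up-regulated/2 down-regulated), against 54% of all genes. With the correction, which did not cover CCND2, 2 genes were, CCND1 up and CDK4 down, where 4780 of 13675 genes passed.

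**Figure D3:**
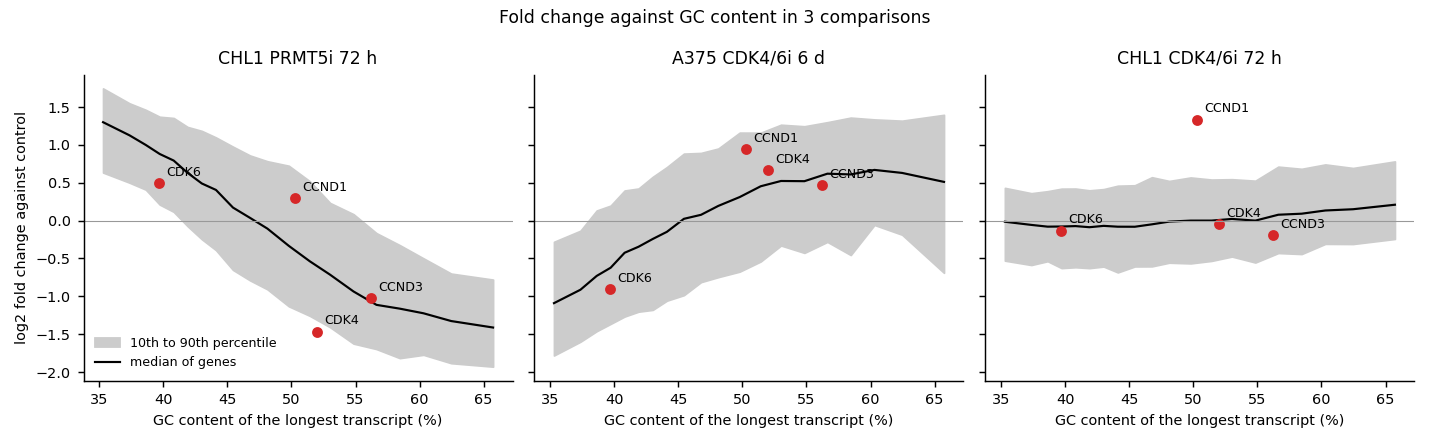
Log2 fold change against the GC content of the longest transcript, as the median (line) and the 10th to 90th percentile (band) of genes averaging at least 1 CPM, with 4 of the 5 genes as points, in 3 comparisons. In CHL1 under PRMT5i the band falls with GC content (Spearman -0.82 across genes), in A375 at 6 days of CDK4/6i it rises (0.59), and in CHL1 at 72 hours of CDK4/6i it is close to flat (0.20) with CCND1 above it.

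Across 13675 genes, which are not independent replicates, the Spearman correlation of the fold change with GC content was -0.82 in CHL1 under PRMT5i and 0.59 in A375 at 6 days of CDK4/6i, against 0.10 to 0.29 in the other 4 treatment comparisons.

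CCND1 made up most of the D cyclin pool in every group. Per kb of merged exon, CCND1 made up 85.6 ± 0.844% of the D cyclin mRNA in the CHL1 control (SD, n = 2) and 94.5 ± 0.0918% and 94.1 ± 0.0496% under CDK4/6i at 72 hours and 6 days. Under PRMT5i, where CCND1 did not pass, its share in CHL1 was 93.7 ± 0.464%. In A375 it made up 91.3 ± 0.974% in the 72-hour control, 94.6 ± 0.233% under CDK4/6i and 91.8 ± 0.679% under PRMT5i, and at 6 days 94.3 ± 0.851% in the control and 95.8 ± 0.357% under CDK4/6i. With the longest transcript as the length, the CCND1 to CCND3 ratio was 2.78 in untreated CHL1 and 8.02 at 72 hours of CDK4/6i, against 5.95 and 17.2 with merged exons. These shares carry no test and no GC correction.

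Per kb of merged exon, the larger part of the kinase pool was CDK4 in every CHL1 group and CDK6 in every A375 group. CDK6 made up 3.63 ± 0.126% of it in the CHL1 control, 3.43 ± 0.407% and 5.74 ± 0.656% at 72 hours and 6 days of CDK4/6i and 13.1 ± 3.81% under PRMT5i. In A375 it made up 55.6 ± 1.99% in the 72-hour control, 52.8 ± 0.894% under CDK4/6i and 52.8 ± 2.15% under PRMT5i, and at 6 days 86.5 ± 5.1% in the control and 68.4 ± 5.71% under CDK4/6i. With the longest transcript as the length, CDK6 made up 44.2 ± 1.99% in the 72-hour A375 control and 8.73 ± 2.66% in CHL1 under PRMT5i. No share here is GC-corrected, and the corrected log2 fold change of CDK6 in CHL1 under PRMT5i was negative (-0.34). The sums of the pools moved apart as well. The sum of D cyclin mRNA per sum of CDK4 and CDK6 mRNA was 2.83 and 3.71 in the CHL1 controls, 7.1 and 8.19 at 72 hours and 7.46 and 7.74 at 6 days of CDK4/6i. Under PRMT5i the CHL1 values were 9.52 and 8.65, with no correction for the GC trend of these libraries. In A375 it was 1.06 and 0.987 in the 72-hour controls, 1.93 and 1.99 under CDK4/6i and 1.15 and 1.27 under PRMT5i, and at 6 days 0.712 and 0.983 in the controls and 2.35 and 2.37 under CDK4/6i.

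**Figure D4:**
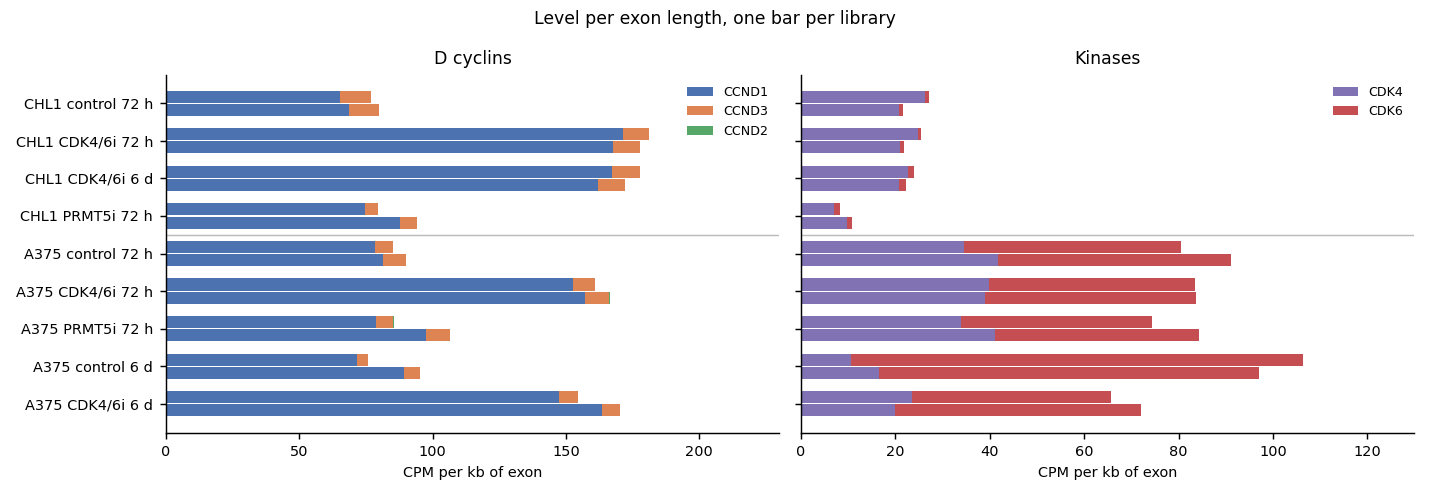
Level of the D cyclin mRNAs (left) and of the CDK4 and CDK6 mRNAs (right) in CPM per kb of merged exon, with a stacked bar for each of the 18 libraries. The D cyclin bars are almost all CCND1 (CCND2 is too low to be seen), and the CDK6 part is at most 1.38 CPM per kb in CHL1 and at least 40.5 CPM per kb in A375.

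The 2 inhibitors were compared directly at 72 hours. In CHL1 4 of 5 genes differed, against 57.8% of all genes. CCND1 (log2 difference of PRMT5i from CDK4/6i -1.04 ± 0.15, adjusted p = 0.000134), CCND3 (-0.82 ± 0.17, adjusted p = 0.00125) and CDK4 (-1.42 ± 0.20, adjusted p = 0.000103) were lower and CDK6 (0.63 ± 0.19, adjusted p = 0.0118) was higher under PRMT5i. With the GC correction CCND1 (-0.78) and CDK4 (-0.99) still passed, while CCND3 (-0.03) and CDK6 (-0.28) did not. The uncorrected CDK6 call was also lost without CHL1 CDK4/6i replicate 1 or 2.

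In A375 the drugs differed in CCND1 and CCND2, 2 of 5 genes against 5.45% of all genes (1129 genes). In the 72-hour libraries alone 4571 genes were called, and 7167 there with the replicate block. CCND1 was lower under PRMT5i (-0.77 ± 0.19, adjusted p = 0.0319) and CCND2 higher (64 against 19 counts, ratio 3.78, 95% interval 2.23 to 6.67, adjusted p = 0.0436). Both calls were lost when any 1 of the 4 libraries was left out, with adjusted p of 0.116 to 0.274 for CCND1 and 0.163 to 0.298 for CCND2. CCND3, CDK4 and CDK6 differed by -0.16 ± 0.23, -0.03 ± 0.22 and -0.03 ± 0.19.

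Between 72 hours and 6 days of CDK4/6i 0 of 5 genes passed the edgeR test in either line, where 0.0145% of all genes did in CHL1 and 1.08% in A375. At an unadjusted p below 0.05 there was 1 in CHL1 and 2 in A375. With the GC correction, which did not cover CCND2, 0 passed in either line. In CHL1 the levels at 6 days minus those at 72 hours differed by -0.03 ± 0.15 for CCND1 and by 0.73 ± 0.19 for CDK6 (adjusted p = 0.352), and by DESeq2 and limma 0 of 5 passed as well. In A375 the GC-corrected change of CDK4 was 0.31 at 6 days and -0.10 at 72 hours, and that of CDK6 was -0.39 and -0.02. Uncorrected, the changes at the 2 times differed in A375 by 0.05 ± 0.27 for CCND1, 0.68 ± 0.31 for CDK4 (adjusted p = 0.237) and -0.73 ± 0.26 for CDK6 (adjusted p = 0.155). CDK6 passed there by DESeq2 (-0.84) and 0 passed by limma, and without A375 6-day control replicate 2 CCND3, CDK4 and CDK6 passed in edgeR.

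The change under CDK4/6i was also compared between the lines. At 72 hours 0 of 5 genes differed by edgeR, against 0.642% of all genes (0 at an unadjusted p below 0.05 and 0 by DESeq2 and limma), with a difference of CHL1 minus A375 of 0.38 ± 0.24 for CCND1. At 6 days CDK6 differed (1.48 ± 0.24, adjusted p = 0.00059, and 1.00 and past the threshold with the GC correction), 1 of 5 genes against 21.9%. With the correction, which did not cover CCND2, 2 genes passed, where 3203 of 13675 genes did. CDK6 passed in each of the 8 fits without 1 library. CCND1, at 0.35 ± 0.24, adjusted p = 0.313, passed with the GC correction (0.68), and CCND3 and CDK4 passed without A375 6-day control replicate 2.

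Under PRMT5i the lines differed in 3 of 5 genes, against 40.9% of all genes. The CHL1 minus A375 differences of CCND3 (-1.06 ± 0.30, adjusted p = 0.0084) and CDK4 (-1.46 ± 0.31, adjusted p = 0.00128) were negative and that of CDK6 was positive (0.66 ± 0.24, adjusted p = 0.0351). With the GC correction CDK4 still differed (-1.01), while CCND3 (-0.25) and CDK6 (-0.24) did not pass. With the correction and the replicate block, in a fit without the 6-day A375 libraries, CCND1 passed as well (0.51, adjusted p = 0.0359). Without the block, over all 18 libraries, its adjusted p was 0.114. CDK4 passed in each of the 8 fits without 1 library, CCND3 in 6 of them, the exceptions being those without A375 control replicate 1 or A375 PRMT5i replicate 2 (adjusted p of 0.00408 to 0.0643 over the 8), and CDK6 in 2 (0.50 to 0.83).

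Genes that act with the D cyclins and these kinases were taken from 5 lists. Their counts stand against shares of all genes of 4.98%, 16.6% and 54% in CHL1 (CDK4/6i at 72 hours and 6 days, and PRMT5i) and of 13.3%, 43.1% and 2.61% in A375. The GC-corrected counts stand against 1670, 3793 and 4780 of 13675 genes in CHL1 and 3916, 5882 and 1404 in A375, in the same order. The later cyclins and CDKs act after the RB step, and 5 of 6 had an entry (CCNE1, CCNE2, CCNA2, CCNB1 and CDK1). Under CDK4/6i 2 of them fell at 72 hours and 3 at 6 days in CHL1, and 4 and 4 in A375, where CCNE1 rose at 6 days (0.91). GC-corrected, 4 fell at 72 hours and 4 at 6 days in CHL1, and 4 and 3 in A375, where 1 rose at 6 days. The median log2 fold changes were -0.76, -0.73, -1.78 and -2.11, beside medians of 0.00 to 0.10 over all genes. CCNA2, the cyclin of S phase, fell from 68.9 and 56.2 CPM to 24.8 and 26.3 CPM in CHL1 at 72 hours and from 72.6 and 96.4 CPM to 20.5 and 26.0 CPM in A375. CCNE2, a cyclin of S phase entry, fell in A375 at 72 hours (-1.92) and 6 days (-2.11, and -1.26 with the GC correction) and in CHL1 at 6 days (-0.73), and under PRMT5i it fell in A375 (-0.99). Under PRMT5i 3 of the 5 fell in A375 (median -0.85), CCNA2 among them (-0.96). In CHL1 the counts under PRMT5i were 3 up-regulated/1 down-regulated (median 0.78), and 1 up-regulated/1 down-regulated with the GC correction. There CCNE2 was at 1.06 and -0.03, and CDK1, the mitotic kinase, was at 1.58 and 0.50. CCNA2 was also up-regulated there, but was at 0.16 and short of the threshold with the GC correction.

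Of the 13 pocket protein and E2F genes 12 had an entry. Under CDK4/6i 2 and 4 fell in CHL1 at 72 hours and 6 days (medians -0.38 and -0.36) and 3 and 4 in A375 (-0.43 and -0.37), where 1 rose at 6 days. After GC correction the 6-day A375 counts became 0 up-regulated/5 down-regulated, so that this rise was lost. The other corrected counts were 0 up-regulated/4 down-regulated and 1 up-regulated/5 down-regulated in CHL1, and 0 up-regulated/5 down-regulated in A375 at 72 hours. RBL1, the RB relative p107, fell in all 4 (-1.60 to -0.82). E2F2, an activating E2F, fell in 3 of them and was at -0.78 in CHL1 at 72 hours. E2F5, a repressive E2F, fell at 6 days in CHL1 (-0.68) and in A375 (-0.81, and -0.09 and short of the threshold with the GC correction). Under PRMT5i 2 fell in A375 (median -0.44), RBL1 (-0.82) and E2F2 (-1.16), and 4 fell with the GC correction. In CHL1 the counts were 6 up-regulated/3 down-regulated (median 0.39), and 1 up-regulated/1 down-regulated with the GC correction, and E2F5 was at 0.69 and -0.28. RBL1 was among the up-regulated genes there, but was at -0.23 and short of the threshold with the GC correction.

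The CDK inhibitors bind the same kinases, and 5 of 7 had an entry. CDKN1A, the p53 target p21, rose in A375 from 125 and 131 CPM in the 72-hour controls to 363 and 400.2 CPM under CDK4/6i (1.52) and 409.8 and 582 CPM under PRMT5i (1.94), and at 6 days of CDK4/6i (1.32). In CHL1 it was at 0.32 and 0.18 under CDK4/6i, short of the threshold, and fell under PRMT5i (-1.01), but was at -0.18 with the GC correction. CDKN1B, or p27, rose in CHL1 at 6 days of CDK4/6i (0.93) and under PRMT5i (1.13, and 0.61 with the GC correction) and fell in A375 at 6 days (-1.57). CDKN1C, or p57, fell at 6 days of CDK4/6i in CHL1 (-0.90) and A375 (-2.10). Over the 5 genes the counts under CDK4/6i were 0 up-regulated/1 down-regulated in CHL1 at 72 hours (median -0.03), 1 up-regulated/1 down-regulated at 6 days (0.18), 1 up-regulated/1 down-regulated in A375 at 72 hours (-0.36) and 1 up-regulated/3 down-regulated at 6 days (-1.57), or 1 up-regulated/4 down-regulated with the GC correction. Under PRMT5i they were 1 up-regulated/3 down-regulated in CHL1 (-1.01), or 2 up-regulated/0 down-regulated with the GC correction. In A375 they were 1 up-regulated/0 down-regulated (-0.30), or 1 up-regulated/1 down-regulated with the correction. The corrected counts at 72 hours of CDK4/6i were 0 up-regulated/2 down-regulated in CHL1 and 1 up-regulated/2 down-regulated in A375.

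Among 11 genes for CDK activation, kinase folding and cyclin D turnover, all with an entry, 0 was a DEG in CHL1 at 72 hours of CDK4/6i and 0 in A375 under PRMT5i by edgeR (medians -0.21 and -0.14). At an unadjusted p under 0.05 these counts were 2 and 1, by DESeq2 1 and 0, and by limma 0 and 0. With the GC correction they were 1 and 0. The counts were 0 up-regulated/2 down-regulated in CHL1 at 6 days (-0.24), 1 up-regulated/2 down-regulated in A375 at 72 hours (-0.17), 2 up-regulated/5 down-regulated at 6 days (0.01; GC-corrected, 3 up-regulated/5 down-regulated), and 6 up-regulated/2 down-regulated in CHL1 under PRMT5i (0.67), or 2 up-regulated/2 down-regulated with the GC correction. CDC37, the co-chaperone that brings CDK4 to HSP90, rose in A375 at 72 hours (0.77) and 6 days of CDK4/6i (1.06, and 0.57 with the GC correction) and fell in CHL1 under PRMT5i (-1.40, and -0.48 with the GC correction). MNAT1, a subunit of the CDK-activating kinase, fell in CHL1 at 6 days of CDK4/6i (-0.84) and in A375 at 72 hours (-0.78) and 6 days (-1.35, and -0.49 with the GC correction). SKP2, of the ubiquitin ligase that degrades p27, fell in A375 at 72 hours (-0.80) and 6 days (-1.03, and -0.59 with the GC correction).

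Of the 12 genes of MAPK output and immediate-early response 11 had an entry. In CHL1 the counts under CDK4/6i were 2 up-regulated/0 down-regulated at 72 hours and 3 up-regulated/1 down-regulated at 6 days (medians -0.07 and 0.03). DUSP4, an ERK phosphatase that ERK itself induces, rose from 84.1 and 93.2 CPM to 413 and 385 CPM at 72 hours and to 476 and 252 CPM at 6 days (2.06). EGR1, an immediate-early factor, fell at 6 days in CHL1 (-2.36), and JUN rose (1.21). In A375 the counts were 0 up-regulated/0 down-regulated at 72 hours, 0 up-regulated/2 down-regulated at 6 days and 1 up-regulated/0 down-regulated under PRMT5i (medians 0.07, 0.03 and 0.02), the last being EGR1 (2.06). For the 72-hour count of 0 by edgeR, 2 genes had an unadjusted p under 0.05, 1 passed by DESeq2 and 0 by limma, and 1 with the GC correction. GC-corrected, the 6-day A375 counts were 0 up-regulated/1 down-regulated. Under PRMT5i in CHL1 the counts were 2 up-regulated/4 down-regulated (-0.17), or 2 up-regulated/2 down-regulated with the GC correction.

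Reads of overlapping genes on the opposite strand may enter these values, since the strandedness is not stated. CCND1 overlaps ORAOV1, which had 442 to 661 counts in the control libraries against 7731 to 13588 for CCND1. CDK4 overlaps TSPAN31 and MARCH9, which had 317 to 444 and 322 to 414 counts against 1081 to 2642 for CDK4. ORAOV1 (0.97) and TSPAN31 (0.62) rose in A375 at 6 days of CDK4/6i. MARCH9 fell in CHL1 under PRMT5i (-0.96, and -0.08 with the GC correction), while TSPAN31 was at -0.06 in that comparison.

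Across the 18 libraries, on log2(CPM + 1) values centred on the mean of each line, CCND3 and CDK4 varied together (Pearson r = 0.93), CDK4 and CDK6 in opposite directions (-0.71), and CCND1 and CDK6 with r = -0.21. These libraries share lines, sets and the GC trend, and the correlations are given as a description. The 3 genes most like each were, by the same measure, BRINP2, MIR4482-1 and SDSL for CCND1 (r = 0.91 to 0.93), INPP5D, GDF15 and UNC13A for CCND2 (0.94 to 0.95), COA3, DAG1 and LMNA for CCND3 (0.98), OAZ1, SDHA and CNDP2 for CDK4 (0.99), and LRRC58, NEK5 and RP11-402J6.1 for CDK6 (0.92 to 0.94). CCND2 was at or below 0.551 CPM outside A375 under PRMT5i (1.65 and 2.06 CPM), so its r rests mainly on that group. On GC-corrected values, which CCND2 lacks, the highest r was 0.80 for CCND3, 0.87 for CDK6, 0.96 for CCND1 and 0.99 for CDK4. SDHA and CNDP2 were among the 3 genes most like CDK4 on both scales, and COA3 and LMNA among those most like CCND3.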

How the data were processed

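Poly-A RNA of the 18 libraries was sequenced in pairs by the study, aligned to GRCh37 with HISAT2 2.0.4 and counted on Ensembl genes with HTSeq 0.11.2 at default settings (versions from the submitters' processing notes), and genes of low expression were removed with edgeR. The authors deposited these values in 1 table whose title calls them normalised. They are whole-number raw counts that sum to between 16213475 and 37424081 per library, and were used as counts. Strandedness is not given in the sources used here.

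The main test was the quasi-likelihood test of edgeR 4.0.16 (R 4.3.3) with TMM scaling and Benjamini-Hochberg adjustment over all 20705 genes (threshold 0.05), in 1 fit per line, or over all 18 libraries between lines. Fold changes carry a prior count of 0.125. Every adjusted p is of this test unless another is named. CPM were computed on TMM-adjusted library sizes, and levels of genes were compared per kb of merged exon (GENCODE annotation lifted to GRCh37). Of the gene symbols, 15208 matched the annotation directly, 1149 through an older symbol and 4348 not at all.

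The GC correction was a loess curve (span 0.4) of each library's deviation on the GC content of the longest transcript, entered as an offset on the 13675 of 15658 genes averaging at least 1 CPM that had a value (87.3%). Alternatives were median-of-ratios scaling, DESeq2 1.42.0, limma 3.58.1 on log2(CPM + 1), a filter of 1 CPM in 2 libraries, other sets of libraries, the replicate block, other controls and leaving out each library. Same-numbered 72-hour A375 libraries deviated together (r = 0.22 to 0.48 over 3 pairs of groups), and the block treats their numbers as pairs. With 2 libraries a group these values cannot establish that the numbers are true pairs. In CHL1, where the libraries share only a number, r reached 0.44. The numbers of the 6-day A375 samples follow accession order and pair nothing. The 2 libraries of each group differed by more than sampling noise.

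The members and the gene lists were chosen with earlier results of these data known. From each list the text names up to 3 genes, those called in most of the 6 treatment comparisons. CCNE1 and the genes given as a list's only call were named after their values were seen. CDKN2A, CDKN2B, E2F8, CDK2 and ETV4 of the pathway lists and SOX10, MLANA, CD3E, PECAM1, CDH5 and CDH1 of the marker lists were not analysed here.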

Additional observations from a re-analysis of the deposited data

Results flagged for a closer look

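In 4 cases a gene's change under the same drug differed between CHL1 and A375 by the interaction test over all 18 libraries in edgeR, given here as the log2 fold change in CHL1 minus that in A375. At 6 days of CDK4/6i CDK6 differed by 1.48 (adjusted p = 0.00059), with a rise in CHL1 and a fall in A375, whose controls differ in time. Under PRMT5i CCND3 differed by -1.06 (adjusted p = 0.0084), CDK4 by -1.46 (adjusted p = 0.00128) and CDK6 by 0.66 (adjusted p = 0.0351). With the GC correction these differences were 1.00, -0.25, -1.01 and -0.24, and those of CDK6 at 6 days and of CDK4 under PRMT5i passed. The groups of 2 libraries were too small for a search for single libraries that stand apart.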

How the results depend on the processing

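Of 640 log2 fold changes and differences recomputed with every replicate, 574 kept their direction and their side of the threshold, 17 lost the call, 13 gained one and 36 changed sign. With a library left out these numbers were 282, 42, 7 and 29 of 360. The cause of each change was not tested. With 2 libraries a group, leaving 1 out assumes that the lone library varies like the other groups. The CHL1 libraries held 0 to 2 counts of CCND2, so its fitted values there and between the lines depend on the prior count and are no measured fold. The shares of the pools moved with the definition of gene length.

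The number of the 5 genes called was, in CHL1 at 6 days of CDK4/6i, 2 in the main test and 1 with median-of-ratios scaling, with limma, with the replicate block and without any 1 library. In A375 at 72 hours of CDK4/6i it was 1, against 2 with limma, with the compared groups only, with all 18 libraries, with the replicate block and in the same libraries unblocked (chosen after seeing the data), and 0 without any 1 library. In A375 at 6 days it was 3, and 1 with the GC correction, 2 with the compared groups only and against the 72-hour control, and 2 to 4 with a library left out. Under PRMT5i in A375 it was 1, and 0 with DESeq2 (no adjusted p for CCND2) and on the genes with a GC value, corrected, blocked or not (CCND2 is not among them), and 0 to 1 with a library left out. Between the lines at baseline it was 4, and 1 to 3 with a library left out. For the difference of the A375 changes between 6 days and 72 hours it was 0, against 1 with DESeq2 and 0 to 3 with a library left out. Between the drugs it was 4 in CHL1, and 2 with the GC correction with or without the block, and 2 in A375, against 1 with DESeq2, with limma and on the genes with a GC value, corrected or not, and 0 without any 1 library. Between the lines it was 1 at 6 days of CDK4/6i, against 2 with the GC correction and 1 to 3 with a library left out, and 3 under PRMT5i, against 1 with the GC correction, 2 with the block besides (CCND1 then passed), 4 with limma and 1 to 3 with a library left out.

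The sign changed as follows. Under the GC correction (and with the block besides) CDK6 in CHL1 under PRMT5i was at -0.34 (-0.34), CCND3 in A375 under PRMT5i at -0.052 (-0.057), CDK6 between the drugs in CHL1 at -0.28 (-0.28), CDK4 between the drugs in A375 at 0.020 (0.014), CCND1 between 6 days and 72 hours in CHL1 at 0.026 (0.028), CDK4 there at 0.00092 (0.00032), and CDK6 between the lines under PRMT5i at -0.24 (-0.15). CDK4 between the lines at 72 hours was at 0.039 with correction and block. The difference of the A375 changes between times was, with the correction, -0.17 for CCND1 and -0.032 for CCND3, and for CCND1 -0.048 with median-of-ratios scaling, -0.048 with DESeq2 and -0.0058 with all 18 libraries. CDK4 in A375 at 72 hours of CDK4/6i was at 0.0076 with median-of-ratios scaling, 0.0076 with DESeq2 and 0.047 with all 18 libraries. Against the 72-hour control the 6-day A375 values were -0.081 for CCND2, -0.19 for CCND3 and -0.86 for CDK4, and against the 6-day A375 control the baseline value of CDK4 was 0.79, or 0.62 with the correction (chosen after seeing the data). With limma CCND3 in A375 under PRMT5i was at -0.0086, and CCND2 between the lines at -0.34 and -0.026 at 72 hours and 6 days of CDK4/6i. CDK6 between the lines at 72 hours was at 0.019 with median-of-ratios scaling and 0.019 with DESeq2.

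With the replicate block CDK6 between the lines at 72 hours of CDK4/6i was at 0.044 (0.040 in the same libraries unblocked) and CCND3 in A375 under PRMT5i at -0.0049. In CHL1 the libraries share only a number (r = -0.34 to 0.44 over 6 pairs of groups), and the block moved the genes called from 1032 to 796 at 72 hours of CDK4/6i, from 3443 to 3167 at 6 days and from 11176 to 11151 under PRMT5i. Of the 5 genes, CDK6 in CHL1 at 6 days changed its call with the block. CCND2 in A375 at 72 hours of CDK4/6i passed with and without the block once the 6-day libraries were left out. CCND1 between the lines under PRMT5i passed with correction and block, in a fit that also leaves out the 6-day A375 libraries. No other call changed in the blocked fits.

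With a library left out, the values whose sign changed ranged as follows. In CHL1 they were CDK4 -0.20 to 0.13 and CDK6 -0.26 to 0.0058 at 72 hours of CDK4/6i, CDK4 -0.26 to 0.080 at 6 days, CCND2 0 to 3.13 under PRMT5i, and CCND1 -0.064 to 0.011 and CDK4 -0.17 to 0.049 between the times. In A375 they were CDK4 -0.13 to 0.15 at 72 hours of CDK4/6i, CCND1 -0.019 to 0.26, CCND3 -0.25 to 0.22 and CDK4 -0.17 to 0.094 under PRMT5i, CCND1 -0.13 to 0.24, CCND2 -1.76 to 2.08 and CCND3 -0.0057 to 0.69 for the difference between times, and CCND3 -0.42 to 0.054, CDK4 -0.16 to 0.092 and CDK6 -0.070 to 0.0040 between the drugs. Between the lines they were CDK4 -0.26 to 0.10 and CDK6 -0.16 to 0.10 at 72 hours, CCND2 -1.07 to 2.72 at 6 days and CCND1 -0.059 to 0.29 under PRMT5i.

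The number of genes called over the table moved by more than 1.5 times in several fits. In CHL1 at 72 hours of CDK4/6i it was 1032, against 1675 with DESeq2, 262 with limma, 4202 with the compared groups only and 1670 with the GC correction. In A375 it was 2761 at 72 hours of CDK4/6i against 6940 with the compared groups only, and 541 under PRMT5i against 901 with DESeq2, 292 with limma, 1861 with the compared groups only and 1404 with the GC correction. In CHL1 under PRMT5i it was 11176 against 4780 with the GC correction, and in A375 at 6 days 8928 against 5862 with the compared groups only and 5882 with the GC correction. With a library left out the numbers were 103 to 136 in CHL1 at 72 hours of CDK4/6i, 631 to 2583 at 6 days and 8536 to 10783 under PRMT5i, 827 to 1042 in A375 at 72 hours, 6079 to 11491 at 6 days and 20 to 67 under PRMT5i, 92 to 141 between the drugs in A375 (from 1129), and 56 to 7019 for the difference between times (from 224), the highest without A375 6-day control replicate 2. Between the lines they were 30 to 46 at 72 hours (from 133) and 2582 to 7692 at 6 days (from 4541). The shares of all genes beside the counts of members rest on these numbers.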
